A study of Mus musculus with 9 samples.

Results

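Pancreatic islets of db/db mice that had received imeglimin and metformin were compared with islets of untreated db/+ mice, 3 RNA sequencing libraries against 3, to show which transcripts of treated diabetic islets still stood apart from the non-diabetic control. Imeglimin and metformin are oral glucose-lowering drugs. Db/db mice are homozygous for a loss-of-function mutation of the leptin receptor gene, overeat and become obese and diabetic. Db/+ mice are heterozygous for it, so the mutant allele is present in all the groups. The 2 groups hold 6 of the 9 libraries of the series. The other 3 came from untreated db/db mice and are given beside the comparison where they help to place a value. The 2 groups compared differ in genotype and in treatment together, so the effects of these cannot be told apart in this comparison. The sources used here give neither doses nor the length of treatment, and say nothing of age, sex, strain background or how many mice make up a sample. There is no group on imeglimin alone or on metformin alone.

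Islets are clusters of endocrine cells within the exocrine pancreas. Most of these cells are beta cells, which take up and phosphorylate glucose, raise their ATP, close ATP-sensitive potassium channels, let calcium in and release insulin from granules. Under lasting metabolic load, beta cells are known to lose the expression of genes that mark their mature state, to turn on genes that mature beta cells keep silent, and to expand the endoplasmic reticulum (ER) machinery that folds proinsulin.

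Of the 46316 gene symbols in the table, 16761 passed the filter on low counts and were tested, and 29555 did not. Levels are given as CPM, the count scaled to a common library total with TMM factors, and differences as log2 fold changes ± standard error. A gene was called at an adjusted p under 0.05 by edgeR's quasi-likelihood test with Benjamini-Hochberg adjustment over all genes tested. Libraries held 10292668 to 15281813 gene counts. Whether the 3 samples of a group are separate animals is not stated in the labels. The p-values therefore reflect the spread among these samples, and that spread may be technical. On the first principal component, which held 70.1% of the variance, all 3 db/+ libraries lay apart from all 6 db/db libraries. The db/+ libraries differed among themselves in the share of counts taken by the insulin genes Ins1 and Ins2, which was 34.8%, 29.4% and 23.1% in replicates 1 to 3, against 19.3%, 17.7% and 17.2% in the treated libraries. Treated replicate 3 stood below the other 2 treated libraries in interferon-regulated genes, as described with those genes. It was also the lowest treated library in 23 of 26 acinar, 11 of 14 duct and 15 of 21 stellate and matrix genes tested. The same held for 5 of 5 red blood cell genes. The lowest treated library differed between the other lists. It was replicate 2 in 21 of 24 ER chaperone and 20 of 27 secretory granule genes. It was replicate 3 in 9 of 14 immediate early, 10 of 15 hypoxia and 11 of 19 macrophage genes. In 16 of 30 proliferation genes it was replicate 1.

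Treated db/db islets differed from db/+ islets at most genes tested. Of the 16761 genes, 5493 (32.8%) were called higher and 5444 (32.5%) lower in treated db/db than in db/+ islets, and the median log2 fold change over all genes was 0.02. At least 2-fold differences were found for 2629 called higher (15.7%) and 2689 called lower (16.0%), and at least 4-fold differences for 760 (4.53%) and 824 (4.92%). Untreated db/db islets, measured against the same 3 db/+ libraries, gave 5242 genes higher (31.3%) and 5357 lower (32.0%), 63.2% in all. By contrast, 3087 genes (18.4%) had a 95% interval that lay within 1.5-fold of the db/+ level on either side, and 655 of these (3.91% of genes tested) were also called. In all, 65.3% of genes were called in either direction, and a count of members in any gene group is read against these shares.

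**Figure D1:**
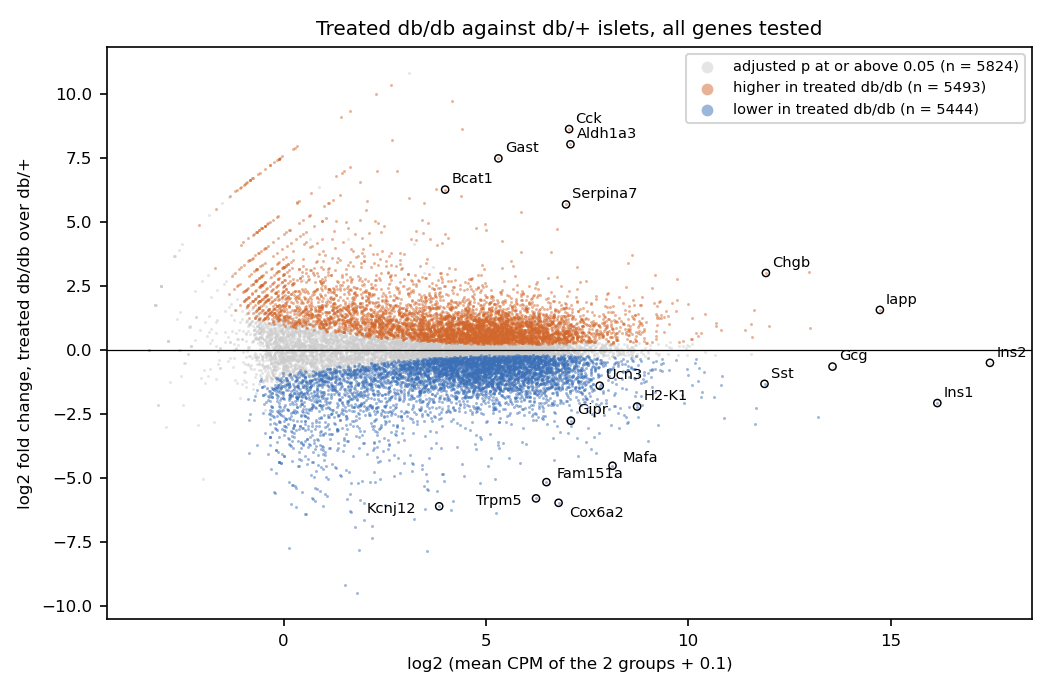
Log2 fold change of treated db/db over db/+ islets (vertical axis) against the log2 mean level in CPM of the 2 groups (horizontal axis) for the 16761 genes tested. Each point is a gene, coloured by whether it was called higher (5493), lower (5444) or not called, and circled genes are named in the text. The oblique lines at the left are genes with few counts in the lower group.

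The cell content of the preparations was examined first with marker genes. In bulk RNA, fewer cells of a type and less RNA per cell cannot be told apart, and this holds for every level given here. The counted transcript of the leptin receptor gene Lepr read 1.58, 0.816 and 0.695 CPM in db/+ and 1.27, 1.504 and 0.968 CPM in treated libraries (log2 fold change 0.27 ± 0.46, adjusted p = 0.628). Because the db mutation acts on splicing, these levels are no check of the genotype. Endocrine markers were abundant in all the libraries. The 27 tested beta cell genes summed to 251943 to 453461 CPM in db/+ and 213923 to 238447 CPM in treated libraries.

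Endothelial markers were lower in treated db/db islets. Of 16 tested members, 13 were called lower and 1 higher, with a median log2 fold change of -0.91, and 13 members did not overlap between the groups on the lower side and 1 on the higher side. Over all genes, 71.0% did not overlap. Against a fold of 1.5, 8 endothelial members were called lower and 1 higher. Summed endothelial CPM ranged from 946 to 1073 in db/+ and from 483 to 523 in treated libraries. Robo4, a guidance receptor of endothelial cells, read 77, 91.1 and 94.9 CPM in db/+ and 18.2, 23.02 and 18.2 CPM in treated libraries, so that every treated library lay far below every control (log2 fold change -2.15 ± 0.16, adjusted p = 4.71e-07). Egfl7, a secreted endothelial factor, was lower in the same way (log2 fold change -2.08 ± 0.14, adjusted p = 1.53e-07), as was the TGF-beta co-receptor Eng (log2 fold change -1.60 ± 0.19, adjusted p = 3.28e-05). The exception was Vwf, a clotting factor carrier of endothelial cells, which was higher (log2 fold change 2.02 ± 0.45, adjusted p = 0.00234), and without treated replicate 1 the higher calls numbered 2. Vegfa, the endothelial growth factor that beta cells secrete, read 403, 418 and 420.2 CPM in db/+ and 346, 285 and 290.3 CPM in treated libraries and was also lower (log2 fold change -0.43 ± 0.10, adjusted p = 0.00269).

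Lymphocyte markers were near their floor in both groups. The 15 tested members summed to 14.3 to 16.6 CPM in db/+ and 7.26 to 19.0 CPM in treated libraries, while untreated db/db libraries reached 51.5 to 594 CPM. The T cell genes Cd3g and Cd8a, chosen after their values were seen, held 0 counts in all db/+ and treated libraries. None of the 15 was called higher, though 3 were without untreated db/db replicate 1. The B cell receptor subunit Cd79a was called lower (log2 fold change -4.35 ± 1.44, adjusted p = 0.0347), a call lost without any 1 of the db/+ or treated libraries (adjusted p from 0.0531 to 0.103). Immune receptor gene segments held 16, 12 and 11 counts in db/+ replicates 1 to 3 and 100, 153 and 355 in treated replicates 1 to 3, against 9577, 788 and 754 in the untreated db/db libraries. Of the macrophage list 4 of 19 members were called higher and 7 lower (median -0.71). With upper-quartile factors the lower calls numbered 4, so that the share of calls that were higher went from 36.4% to 50%, and lower calls also numbered 4 without db/+ replicate 1, 2 or 3 or treated replicate 2 or 3. Higher calls numbered 1 without db/+ replicate 2, 2 without db/+ replicate 3 and 2 without treated replicate 3. Cd68, a lysosomal protein of macrophages, was lower (log2 fold change -1.10 ± 0.16, adjusted p = 5.18e-05), and C1qa, a complement subunit, was higher (log2 fold change 0.51 ± 0.10, adjusted p = 0.000628), each without overlap between the groups. The related subunits split. C1qc was called higher (log2 fold change 0.64, adjusted p = 0.0249). C1qb was called lower (adjusted p = 0.000493), with log2 fold changes from -0.86 to -0.71 in fits that left out 1 library. None of these C1q genes passed the test against a fold of 1.5.

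Acinar and stromal markers ranged widely between libraries. The acinar list averaged 0.16 to 2.49 on the log2 (CPM + 0.5) scale in db/+ libraries and 2.31 to 3.70 in treated libraries, with db/+ replicate 3 highest among the controls. Of 26 acinar members 4 were called higher and 1 lower, and the higher count was 1 without db/+ replicate 1 or 2, and 2 without treated replicate 1, 2 or 3 or untreated db/db replicate 3, so the count of acinar calls moved with single libraries. It was 8 without untreated db/db replicate 2, by DESeq2 or with transcripts summed, and the lower calls numbered 2 without untreated db/db replicate 1 or 2. The stellate cell and matrix list had 7 of 21 members higher and 4 lower (median 0.49), with 2 higher without db/+ replicate 1 or 2 and 3 without treated replicate 2, and 2 lower without db/+ replicate 2 or treated replicate 3. Fn1, the matrix protein fibronectin, was the clearest of these, with 0.792, 1.63 and 0.794 CPM in db/+ and 10.02, 13.01 and 7.805 CPM in treated libraries (log2 fold change 3.25 ± 0.34, adjusted p = 1.07e-05). Duct cell markers had 3 of 14 higher and 3 lower, and 0 of 5 red blood cell genes were called. The part of these cell types in the results below was not tested.

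Among the hormones, Ins1 was lower in treated db/db islets, Ins2 did not pass the test and islet amyloid polypeptide was higher. Ins1 and Ins2 encode the rodent insulins. Ins1 levels were 147950.0, 117984 and 88588 CPM in db/+, 35389, 25327 and 23169 CPM in treated db/db and 18539.9, 30544 and 48382 CPM in untreated db/db libraries. All treated values lay below all db/+ values (log2 fold change -2.08 ± 0.34, adjusted p = 0.000167). Ins2 read 279306, 207265 and 147713 CPM in db/+ and 156205, 144497 and 144888 CPM in treated libraries, which overlapped, with db/+ replicate 3 among the treated values (log2 fold change -0.51 ± 0.28, adjusted p = 0.125). Ins2 was called lower by DESeq2 and in the edgeR fit without db/+ replicate 3. The 2 genes are near-identical in parts of their sequence, so reads can be split between them. Iapp, the beta cell peptide that forms islet amyloid in some species, read 18997, 13012 and 9561 CPM in db/+ and 41281, 39059 and 41921 CPM in treated libraries, and its groups were far apart (log2 fold change 1.56 ± 0.24, adjusted p = 9.84e-05).

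Factors of transcription that hold beta cells in their mature state were lower to very different extents. Mafa, which drives insulin transcription in mature beta cells, read 509, 545 and 555 CPM in db/+ and 37.5, 15.2 and 17.3 CPM in treated libraries. The control values lay within a narrow band and the highest treated value, in replicate 1, was still far below them (log2 fold change -4.53 ± 0.45, adjusted p = 7.36e-05). Pdx1, the pancreatic master regulator, was lower by much less, with 142, 113 and 109 CPM against 95.6, 79.1 and 91.4 CPM and no overlap (log2 fold change -0.45 ± 0.12, adjusted p = 0.00414). Neurod1, which activates the insulin genes, was also lower (log2 fold change -0.54 ± 0.11, adjusted p = 0.000952). Neither Pdx1 nor Neurod1 passed the test against a fold of 1.5. Nkx6-1, a repressor of other endocrine fates, read 190.2, 317 and 315 CPM in db/+ and 164, 147 and 206 CPM in treated libraries, where db/+ replicate 1 fell within the treated range. Its call (log2 fold change -0.67 ± 0.21, adjusted p = 0.0158) failed without db/+ replicate 3 (adjusted p = 0.0582) or without treated replicate 1 (0.0532) or 2 (0.0587). Nkx2-2 and Rfx6, other endocrine transcription factors that were chosen after their values were seen, had 95% intervals within 1.5-fold of db/+.

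Maturity markers and the receptors of beta cells split in direction. Ucn3, a peptide made by mature beta cells, read 377, 331 and 271 CPM in db/+ and 118, 119 and 133 CPM in treated libraries (log2 fold change -1.40 ± 0.16, adjusted p = 8.49e-06), with no overlap. The receptor of the gut hormone GIP, Gipr, fell from 189.8, 257 and 270.3 CPM in db/+ to 37.2, 34.4 and 33.6 CPM in treated libraries (log2 fold change -2.77 ± 0.13, adjusted p = 1.5e-08), which is a difference of several fold with little spread. The receptor of the gut hormone GLP-1, Glp1r, went the other way, with 78.5, 50.9 and 77.1 CPM in db/+ and 173, 182 and 159 CPM in treated libraries (log2 fold change 1.32 ± 0.17, adjusted p = 4.67e-05). The fatty acid receptor Ffar1 was low in all the libraries and higher in the treated ones, at 6.14, 3.57 and 4.27 CPM against 18.3, 18.05 and 17.8 CPM (log2 fold change 1.95 ± 0.18, adjusted p = 1.15e-06). Cltrn, a membrane protein of beta cells that promotes growth and secretion in mice, was higher too, at 249, 215 and 188 CPM against 1350.5, 1496 and 1574 CPM (log2 fold change 2.76 ± 0.14, adjusted p = 2.03e-08). Fam151a, a beta cell transcript, was at 198, 179 and 149 CPM in db/+ and 5.43, 4.77 and 4.45 CPM in treated libraries (log2 fold change -5.17 ± 0.21, adjusted p = 2.03e-08). Over the whole beta cell identity list, 15 of 27 members were called lower and 6 higher, with a median log2 fold change of -0.51. In untreated db/db islets against the same controls 17 were lower and 4 higher, with a median of -0.64. None of the 27 was called between treated and untreated db/db islets.

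**Figure D2:**
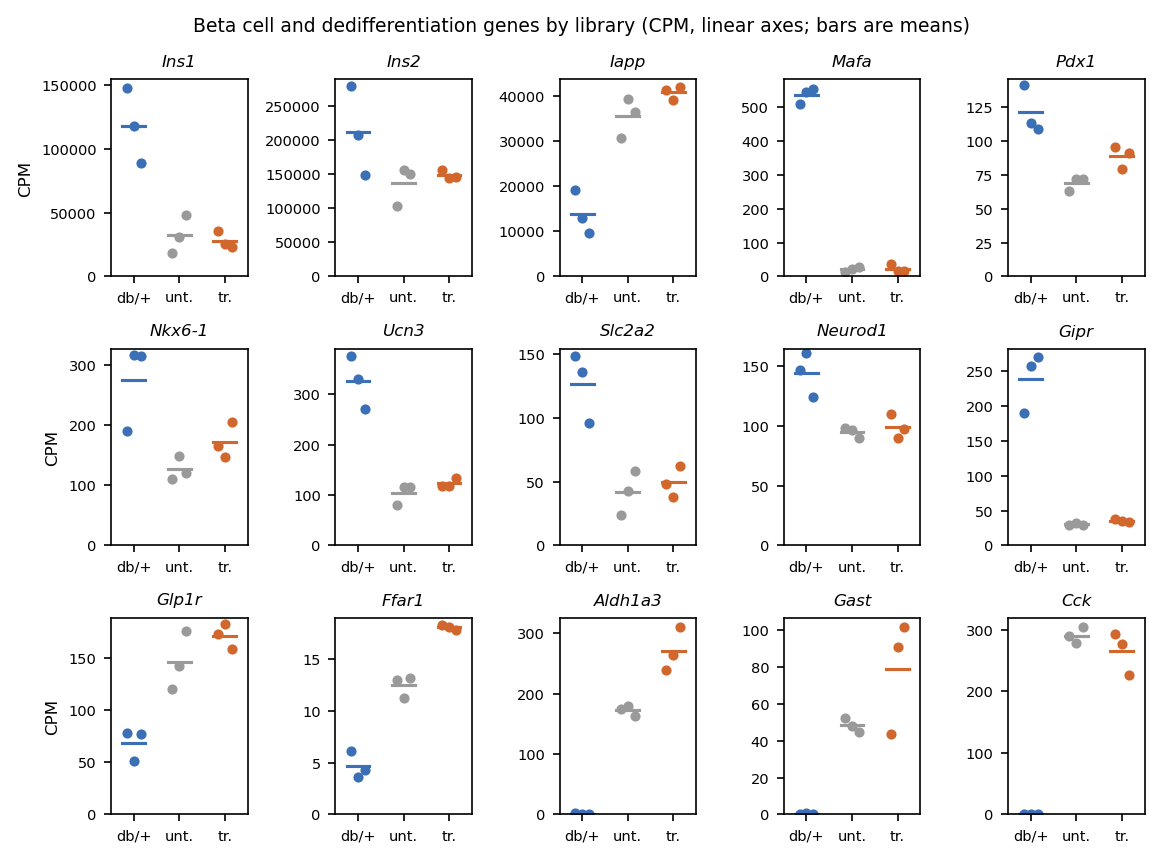
CPM of 15 beta cell and dedifferentiation genes in the 9 libraries (linear vertical axes starting at 0, one panel per gene). Points are libraries in the order of replicates 1 to 3, bars are group means, and the groups are db/+ (blue), untreated db/db (grey, unt.) and treated db/db (orange, tr.). Mafa and Gipr were low and Aldh1a3 and Cck were high in both db/db groups.

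Genes that mark dedifferentiated beta cells had the largest median difference of the 36 lists. Of 12 tested members of the dedifferentiation list, 10 were called higher and none lower, with a median log2 fold change of 4.88. Those 10 did not overlap between the groups, against 71.0% of all genes tested that did not overlap in either direction. Markers of this kind come from work on diabetic islets, db/db islets among them, so the list is not independent evidence of its direction. Aldh1a3, a retinal dehydrogenase used as a marker of failing beta cells, read 1.68, 1.12 and 0.298 CPM in db/+, 239.8, 264 and 311 CPM in treated and 175, 179 and 164 CPM in untreated db/db libraries (log2 fold change 8.02 ± 0.27, adjusted p = 5.16e-09 against db/+). The untreated values lay below the treated ones, and between these 2 groups the gene was not called (log2 fold change 0.65 ± 0.16, adjusted p = 0.101). Gast, the gene of the stomach hormone gastrin, was nearly silent in db/+ islets at 0.396, 0.612 and 0.298 CPM and read 43.6, 90.6 and 102 CPM in treated libraries (log2 fold change 7.47 ± 0.49, adjusted p = 3.31e-06). Cck, the gene of the related hormone cholecystokinin, read 0.594, 0.816 and 0.596 CPM in db/+ and 293, 277 and 227 CPM in treated libraries (log2 fold change 8.62 ± 0.18, adjusted p = 2.94e-11). Gc, the vitamin D binding protein that is normally made by alpha cells in islets, was at 69.9, 50.2 and 48.2 CPM against 758, 589 and 842 CPM (log2 fold change 3.70 ± 0.21, adjusted p = 9.19e-08). Serpina7, a thyroxine carrier, was also higher (log2 fold change 5.67 ± 0.37, adjusted p = 2.9e-06). Vstm2a had 1 count over the db/+ libraries and 1601 over the treated ones, a ratio of 1067 with an exact 95% counting interval from 191 to 42188. The 1 count was in db/+ replicate 1, and without that library the fitted log2 fold change, which is no bound, moved from 9.70 to 11.89. Counting intervals cover counting error only. The 2 members that were not called were Sox9 (log2 fold change -0.35) and Bach2 (0.00).

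The list of genes that are silenced in mature beta cells of healthy mice did not share this pattern. Of 24 tested members 6 were higher and 3 lower, with a median of 0.05. In untreated db/db islets against the same controls 10 were higher and 1 lower, with a median of 0.89. None of the 24 was called between treated and untreated db/db islets. Treated replicate 3 was the lowest treated library in 15 of the 24. Oat, a mitochondrial aminotransferase, was higher (log2 fold change 1.93 ± 0.14, adjusted p = 1.82e-07), as was the antioxidant enzyme Cat (log2 fold change 1.12 ± 0.17, adjusted p = 7.68e-05). The transcriptional regulators Lmo4 (log2 fold change -1.36 ± 0.23, adjusted p = 0.000206) and Yap1 (log2 fold change -0.91 ± 0.21, adjusted p = 0.00245) were lower.

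Hormones of the other islet cells were lower or not called. Sst, the somatostatin gene of delta cells, read 4357, 5281 and 6614 CPM in db/+ and 1802, 2904 and 1754 CPM in treated libraries without overlap (log2 fold change -1.33 ± 0.23, adjusted p = 0.000241). Rbp4, a retinol carrier that delta cells express in mice, was lower as well (log2 fold change -1.70 ± 0.30, adjusted p = 0.00136). Gcg, the glucagon gene of alpha cells, ranged widely among treated libraries, at 7125, 16276 and 4857 CPM against 12122, 13759.6 and 18651 CPM in db/+ (log2 fold change -0.66 ± 0.40, adjusted p = 0.173), and it was called lower only without treated replicate 2. Ppy, the pancreatic polypeptide gene, read 2728, 3359 and 3363 CPM in db/+ and 2009, 3114 and 3308 CPM in treated libraries (log2 fold change -0.16 ± 0.20, adjusted p = 0.48), and these overlapped. Ttr, a carrier protein of alpha cells, was higher (log2 fold change 0.92 ± 0.15, adjusted p = 0.00013). Of 14 members of the list 7 were lower and 2 higher (median -0.75), but the lower calls numbered 3 without db/+ replicate 2, db/+ replicate 3 or treated replicate 1, and 4 without treated replicate 3.

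Genes of the secretory granule were mostly higher. The granule list had 15 of 27 members higher and 5 lower, with a median of 0.36. Only 8 were called higher against a fold of 1.5. Its granins differed by several fold. Chgb, chromogranin B, read 1000.0, 812 and 775 CPM in db/+ and 5677, 6612 and 8377 CPM in treated libraries (log2 fold change 3.00 ± 0.18, adjusted p = 6.69e-08). Scg2, secretogranin II, read 2517, 1469 and 1281 CPM against 14626, 13802 and 15077 CPM (log2 fold change 3.05 ± 0.25, adjusted p = 5.78e-07). Pam, which amidates peptide hormones, was higher (log2 fold change 1.93 ± 0.12, adjusted p = 9.19e-08). The members called lower included parts of the release machinery. Sytl4, a linker of granules to the membrane that is also called granuphilin, read 278, 269.6 and 249 CPM in db/+ and 65.03, 50.7 and 63.9 CPM in treated libraries (log2 fold change -2.15 ± 0.18, adjusted p = 1.67e-06). The priming factor Unc13a (log2 fold change -1.32 ± 0.14, adjusted p = 5.76e-06) and the membrane SNARE Stx1a (log2 fold change -1.29 ± 0.16, adjusted p = 1.31e-05) were lower too. The intervals of 9 members lay within 1.5-fold of db/+, among them, chosen after their values were seen, the SNARE Snap25 (log2 fold change -0.03).

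Ion channels leaned lower, with 12 of 20 members lower and 5 higher (median -0.31). Against a fold of 1.5, 7 were called lower and 3 higher. Kcnj12, an inward rectifier potassium channel, had the lowest log2 fold change among called, non-overlapping genes with more than 3 counts over the lower group and at least 10 CPM in the higher one. It read 29.4, 27.5 and 27.6 CPM in db/+ and 0.0705, 0.523 and 0.581 CPM in treated libraries (log2 fold change -6.11 ± 0.32, adjusted p = 2.48e-08). Trpm5, a calcium-activated cation channel of beta cells, read 167, 162 and 116 CPM against 2.82, 2.81 and 2.32 CPM (log2 fold change -5.80 ± 0.36, adjusted p = 2.6e-06). The calcium channel subunit Cacna1a was also lower (log2 fold change -1.39 ± 0.11, adjusted p = 4.23e-07). Sodium channels split. Scn8a was lower (log2 fold change -1.31 ± 0.11, adjusted p = 6.02e-07) while Scn9a (log2 fold change 1.71 ± 0.11, adjusted p = 1.0e-07) and Scn3a (log2 fold change 1.86 ± 0.15, adjusted p = 4.43e-07) were higher. Kcnj11 and Abcc8, the subunits of the ATP-sensitive potassium channel, were chosen after their values were seen, and both were called lower, with log2 fold changes of -0.32 and -0.72.

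Immediate early genes, which activity and calcium induce within minutes, were lower in 6 of 14 tested members and higher in 2 (median -0.49). Npas4, an activity-dependent factor that protects beta cells in mice, read 230.2, 422 and 234 CPM in db/+ and 16.6, 14.4 and 18.9 CPM in treated libraries (log2 fold change -4.15 ± 0.44, adjusted p = 0.000119). Fos (log2 fold change -1.48 ± 0.20, adjusted p = 3.65e-05), Ier2 (log2 fold change -1.21 ± 0.15, adjusted p = 1.21e-05) and the clock gene Per1 (log2 fold change -1.21 ± 0.14, adjusted p = 1.02e-05) were lower, and Nr4a2, an orphan nuclear receptor, was higher (log2 fold change 1.44 ± 0.22, adjusted p = 9.15e-05). The other higher call, Egr2, was lost without db/+ replicate 3 (adjusted p = 0.0769).

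Most genes of the ER chaperone and unfolded protein response list were higher. Of 24 tested members 19 were called higher and 1 lower, with a median log2 fold change of 0.89. The 19 higher calls were found in each fit that left out 1 of the db/+ or treated libraries, and 14 passed against a fold of 1.5. Hspa5, the most abundant ER chaperone (also called BiP), read 2555, 1849 and 1577 CPM in db/+ and 3895, 3045 and 3230.2 CPM in treated libraries. The lowest treated library stood above the highest control (log2 fold change 0.77 ± 0.20, adjusted p = 0.00401), but the gene did not pass the test against a fold of 1.5. Ern1, the stress sensor that splices Xbp1 mRNA, read 125, 91.3 and 89.3 CPM against 409, 338 and 448 CPM (log2 fold change 1.97 ± 0.16, adjusted p = 5.29e-07). Dnajc3, which restrains the kinase Eif2ak3, was higher (log2 fold change 1.77 ± 0.15, adjusted p = 8.18e-07), as was the disulphide isomerase Pdia6 (log2 fold change 1.5 ± 0.14, adjusted p = 1.51e-06). Dnajb11, a co-chaperone of Hspa5, was the 1 member called lower (log2 fold change -0.31 ± 0.11, adjusted p = 0.0296), a call that failed without db/+ replicate 1 (adjusted p = 0.0992) or without treated replicate 2 (0.116) or 3 (0.136). Without db/+ replicate 3, 3 members were called lower.

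Promoters of the ER list are shown because the members moved together and 8 of them carry the ER stress response element, the sequence that ATF6 and NF-Y are known to bind. The letters CCAAT and CCACG with any 9 bases between them were searched on both strands from 250 bases before to 50 bases after each gene start in RefSeq promoters of build GRCm38.p6, whereas the counts were made on GRCm39. The element was found in 8 of the 21 tested members with a promoter in the table (38.1%), in 21 of 12365 tested genes with a promoter (0.170%) and in 0.119% of all 32851 promoters. Of these 8, 5 were called higher and 3 were not called. Of the 13 members with a promoter and no match, 11 were called higher and 1 lower. Members with a match were thus not called more often than members without one. Over all genes, 65.3% were called in either direction. For 4 of the 8, the stretch around the match, which is in capitals, is given 5' to 3' on the strand of the gene.
Hspa5 (chr2:34771985-34772083, plus strand): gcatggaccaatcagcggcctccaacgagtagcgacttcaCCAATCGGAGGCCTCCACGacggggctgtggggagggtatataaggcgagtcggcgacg
Pdia6 (chr12:17266451-17266549, plus strand): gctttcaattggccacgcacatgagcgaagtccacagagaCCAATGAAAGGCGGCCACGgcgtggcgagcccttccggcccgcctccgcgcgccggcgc
Dnajc3 (chr14:118937787-118937885, plus strand): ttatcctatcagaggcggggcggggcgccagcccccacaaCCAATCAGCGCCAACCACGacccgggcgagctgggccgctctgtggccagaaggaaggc
Calr (chr8:84847035-84847133, minus strand): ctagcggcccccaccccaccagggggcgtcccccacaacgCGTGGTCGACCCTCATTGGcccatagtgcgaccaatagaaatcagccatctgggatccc
The first 3 hold the element in the direction of the gene and belong to genes that were higher. Calr, a calcium-binding chaperone that was not called (log2 fold change -0.21) and was chosen after its values were seen, holds it on the opposite strand. Direction did not separate the calls among the matches not printed. Syvn1, chosen after its values were seen, holds the element in the direction of the gene and was not called (log2 fold change -0.17). Hsp90b1, which was called higher, holds it in both directions.

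Genes of the integrated stress response, the program run by ATF4 and CHOP, did not move together. Of 25 tested members 9 were higher and 5 lower, with a median of 0.23. Ddit3, which encodes the death-linked factor CHOP, read 501, 452 and 503 CPM in db/+ and 187, 148 and 187 CPM in treated libraries, with no overlap (log2 fold change -1.48 ± 0.13, adjusted p = 6.59e-07). Slc7a11, the cystine importer, was higher (log2 fold change 1.91 ± 0.13, adjusted p = 1.6e-07), as was Sesn2, a stress-induced brake on growth signalling (log2 fold change 1.57 ± 0.15, adjusted p = 1.36e-06). Gdf15, a hormone of cell stress, read 2.08, 1.73 and 2.88 CPM in db/+ and 2.82, 3.401 and 3.23 CPM in treated libraries and was not called (log2 fold change 0.50 ± 0.28, adjusted p = 0.141). Atf4 itself and the stress genes Trib3 and Atf3, chosen after their values were seen, had intervals within 1.5-fold of db/+. Antioxidant genes split, with 10 of 26 higher and 8 lower. The peroxiredoxin of the ER, Prdx4, was higher (log2 fold change 1.92 ± 0.11, adjusted p = 7.01e-08), while the metal-binding protein Mt2 read 2988, 2258 and 2220.3 CPM in db/+ and 707, 709 and 675 CPM in treated libraries (log2 fold change -1.84 ± 0.14, adjusted p = 2.37e-07). The lipid peroxide reductase Gpx4 was lower (log2 fold change -1.06 ± 0.11, adjusted p = 2.82e-06). Txnip, a glucose-induced inhibitor of thioredoxin that is linked to beta cell death, read 44.04, 40.5 and 40.01 CPM against 99.6, 98.6 and 106 CPM (log2 fold change 1.29 ± 0.10, adjusted p = 4.12e-07).

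**Figure D3:**
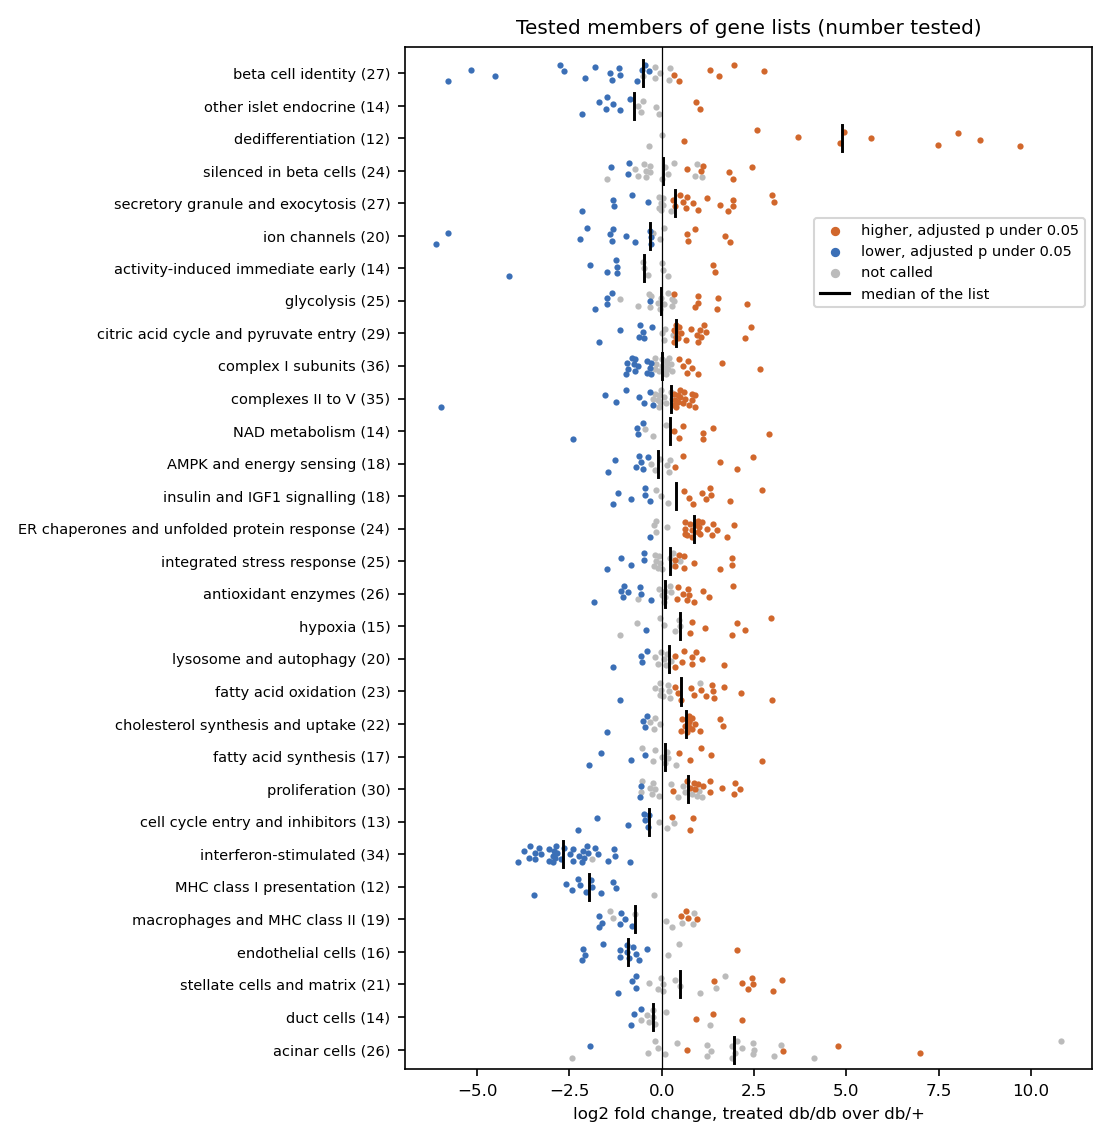
Log2 fold changes of treated db/db over db/+ islets (horizontal axis) for the tested members of the gene lists (rows, with the number tested). Points are genes, orange where called higher, blue where called lower and grey where not called, and the black bar is the median of the list, which is 4.88 for dedifferentiation, 0.89 for ER chaperones and -2.69 for interferon-stimulated genes. Fitted values of genes with few counts in the lower group, such as the highest acinar points, are not bounds, and scatter within a row has no meaning.

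In glucose handling, the glucose transporter of beta cells was lower and glycolysis was mixed. Slc2a2, that transporter in rodents, read 148, 136 and 96.1 CPM in db/+ and 48.3, 38.3 and 62.1 CPM in treated libraries (log2 fold change -1.35 ± 0.35, adjusted p = 0.0104), and the groups did not overlap. The glycolysis list as a whole had 7 of 25 members higher and 5 lower, and its median was -0.02, or 0.02 with upper-quartile factors. Pfkm, the muscle-type phosphofructokinase that beta cells also use (log2 fold change 0.97 ± 0.11, adjusted p = 9.23e-06), and the pyruvate kinase Pklr (log2 fold change 1.52 ± 0.17, adjusted p = 5.76e-06) were higher. Eno2 was lower (log2 fold change -1.49 ± 0.14, adjusted p = 1.46e-06), and so was Gapdh (log2 fold change -1.49 ± 0.11, adjusted p = 2.43e-07), whose many processed copies in the mouse genome make its count uncertain. Mlxipl, the glucose-sensing factor also known as ChREBP, was lower (log2 fold change -1.63 ± 0.19, adjusted p = 1.44e-05).

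In the list of the citric acid cycle and the entry of pyruvate into mitochondria, 18 of 29 members were higher and 7 lower (median 0.39). Against a fold of 1.5, 8 were called higher and 2 lower. Pdk1, a kinase that blocks pyruvate oxidation, read 14.4, 13.8 and 14.3 CPM in db/+ and 76.95, 61.7 and 64.6 CPM in treated libraries (log2 fold change 2.26 ± 0.12, adjusted p = 2.43e-08). Pcx, the pyruvate carboxylase that refills the cycle in beta cells, went down from 103, 116 and 121 CPM to 34.3, 32.6 and 38.1 CPM (log2 fold change -1.70 ± 0.11, adjusted p = 9.23e-08). The mitochondrial isocitrate dehydrogenase Idh2 was lower (log2 fold change -1.13 ± 0.13, adjusted p = 5.64e-06), and the succinyl-CoA ligase subunit Suclg2 was higher (log2 fold change 1.16 ± 0.10, adjusted p = 6.52e-07). 

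Respiratory chain subunits did not share a direction. Complex I is the part of the chain that metformin is known to inhibit. Its nuclear-encoded list had 8 of 36 members higher and 13 lower (median 0.02), and 14 were higher without db/+ replicate 1. The intervals of 18 of the 36 lay within 1.5-fold of db/+. Ndufa1 was higher (log2 fold change 2.67 ± 0.21, adjusted p = 1.13e-06), and Ndufv1, which holds the NADH binding site, was lower (log2 fold change -0.97 ± 0.09, adjusted p = 1.12e-06). In complexes II to V, 16 of 35 members were higher and 8 lower (median 0.24), with 10 higher without db/+ replicate 2. Against a fold of 1.5, 4 were called higher and 4 lower. Cox6a2, a cytochrome oxidase subunit of heart and muscle, stood far from the rest, at 238, 239 and 178 CPM in db/+ and 5.502, 1.896 and 3.096 CPM in treated libraries (log2 fold change -5.98 ± 0.53, adjusted p = 5.49e-05). Atp5d, an ATP synthase subunit, was also lower (log2 fold change -1.54 ± 0.10, adjusted p = 1.09e-07), and Uqcrc2 of complex III was higher (log2 fold change 0.89 ± 0.09, adjusted p = 2.96e-06).

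Genes around the energy sensor AMPK, which metformin is known to activate in liver, had 7 of 18 members lower and 5 higher (median -0.11). Its catalytic subunit Prkaa2 was higher at a low level, with 4.95, 2.85 and 4.47 CPM in db/+ and 18.1, 14.9 and 17.3 CPM in treated libraries (log2 fold change 2.03 ± 0.18, adjusted p = 1.16e-06). The regulatory subunit Prkab2 (log2 fold change -1.45 ± 0.09, adjusted p = 9.23e-08) and the upstream kinase Stk11 (log2 fold change -1.27 ± 0.09, adjusted p = 1.91e-07) were lower. Among NAD genes, on which imeglimin has been reported to act through the salvage pathway, 7 of 14 were higher and 4 lower (median 0.23). Nampt, the rate-limiting salvage enzyme, was lower (log2 fold change -0.67 ± 0.19, adjusted p = 0.0113), though not without db/+ replicate 1 (adjusted p = 0.0810). Naprt, which starts from nicotinic acid, was lower (log2 fold change -2.40 ± 0.22, adjusted p = 1.81e-06), and the transhydrogenase Nnt (log2 fold change 1.38 ± 0.12, adjusted p = 5.85e-07) and the axon-linked Nmnat2 (log2 fold change 2.90 ± 0.29, adjusted p = 4.06e-06) were higher. For each of the genes named here on AMPK and NAD, the untreated db/db islets stood on the same side of db/+, Nampt without a call, and none was called between treated and untreated db/db islets.

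Genes of fatty acid oxidation and of cholesterol synthesis and uptake leaned higher, and those of fatty acid synthesis did not. In fatty acid oxidation 13 of 23 members were higher and 1 lower (median 0.51), with 2 lower without db/+ replicate 2 or 3. Cpt1a, the gate of fatty acid entry into mitochondria, read 27.8, 28.3 and 24.6 CPM in db/+ and 113, 111 and 131 CPM in treated libraries (log2 fold change 2.14 ± 0.10, adjusted p = 1.73e-08). Hadhb (log2 fold change 1.07 ± 0.11, adjusted p = 2.94e-06) and Etfdh (log2 fold change 1.41 ± 0.14, adjusted p = 2.01e-06), of the oxidation steps that follow, were higher, and the short-chain dehydrogenase Acads was lower (log2 fold change -1.12 ± 0.15, adjusted p = 3.41e-05). In cholesterol synthesis and uptake 14 of 22 were higher and 4 lower (median 0.66), and lower calls numbered 2 without treated replicate 2. Against a fold of 1.5, 6 were called higher and 1 lower. The isomerase Idi1 was higher (log2 fold change 1.67 ± 0.22, adjusted p = 2.34e-05), and Pmvk, a kinase of the mevalonate pathway, was lower (log2 fold change -1.49 ± 0.11, adjusted p = 1.95e-07). The 2 enzymes that complete triglycerides went in opposite directions, within a fatty acid synthesis list with 5 of 17 members higher and 4 lower (median 0.10). Dgat2 was higher (log2 fold change 2.71 ± 0.15, adjusted p = 4.41e-08) and Dgat1 was lower (log2 fold change -1.97 ± 0.27, adjusted p = 0.000231). Dgat1 read 41.8, 49.8 and 56.4 CPM in db/+, 12.8, 12.2 and 12.8 CPM in treated and 48.3, 40.01 and 21.2 CPM in untreated db/db libraries, and the 2 db/db groups did not differ at the threshold (adjusted p = 0.0711).

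Genes of cell division were low and partly higher. In the proliferation list 13 of 30 were called higher and 2 lower (median 0.72), with 1 lower without db/+ replicate 2 or 3 or treated replicate 2 or 3. Higher calls numbered 8 against a fold of 1.5. They also numbered 8 with a filter of at least 50 counts in at least 3 libraries, which leaves out genes with few counts. The replication helicase subunit Mcm4 (log2 fold change 1.62 ± 0.22, adjusted p = 3.57e-05) and the ribonucleotide reductase subunit Rrm2 (log2 fold change 1.94 ± 0.31, adjusted p = 0.000122) were higher. Mki67, the common proliferation marker, read 7.82, 7.24 and 7.05 CPM in db/+ and 8.53, 12.6 and 9.03 CPM in treated libraries, which did not overlap but did not pass the test (log2 fold change 0.45 ± 0.36, adjusted p = 0.298). It was called in the fit to the 6 libraries alone and without untreated db/db replicate 1. Ccnd2, the D-type cyclin that beta cell growth needs in mice, read 1580.3, 1498 and 1214 CPM against 480.2, 379.9 and 404 CPM and was lower (log2 fold change -1.76 ± 0.14, adjusted p = 3.87e-07). The imprinted inhibitor Cdkn1c was lower too (log2 fold change -2.27 ± 0.34, adjusted p = 6.99e-05), and both belong to a list of cell cycle entry genes and inhibitors in which 7 of 13 were lower and 3 higher (median -0.35). In insulin and IGF1 signalling 9 of 18 members were higher and 6 lower (median 0.39). The adaptor Irs2 was higher (log2 fold change 1.85 ± 0.14, adjusted p = 2.52e-07), and the receptor Igf1r (log2 fold change -1.32 ± 0.14, adjusted p = 3.29e-06) and the factor Foxo1 (log2 fold change -1.18 ± 0.11, adjusted p = 1.24e-06) were lower. The 95% intervals of the kinases Akt1 and Akt2, chosen after their values were seen, lay within 1.5-fold of db/+. Hypoxia genes had 7 of 15 higher and 1 lower, Vegfa (2 lower without treated replicate 2), with Hif1a (log2 fold change 0.82 ± 0.14, adjusted p = 0.000176) among the higher. Lysosomal genes had 9 of 20 higher and 4 lower, with the protease Ctsl higher (log2 fold change 1.68 ± 0.13, adjusted p = 2.58e-07) and the lysosomal regulator Tfeb lower (log2 fold change -1.32 ± 0.21, adjusted p = 0.000132).

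Interferon-stimulated genes were lower in treated db/db islets nearly without exception. Of 34 tested members, 33 were called lower and none higher, with a median log2 fold change of -2.69. In all 34 each treated library lay below each db/+ library, against 71.0% of all genes tested without overlap in either direction. The 1 member not called was Ifi47 (log2 fold change -1.88). Lower calls numbered from 28 to 34 over the 19 alternatives tried. Type I interferon turns on genes of antiviral defence. Ifi27 read 215, 233 and 245 CPM in db/+, 48.1, 37.3 and 25.6 CPM in treated and 50.1, 37.6 and 63.99 CPM in untreated db/db libraries (log2 fold change -2.64 ± 0.25, adjusted p = 1.58e-05 against db/+). Usp18, a brake on the interferon receptor, read 152, 171 and 153 CPM against 44.6, 38.8 and 23.7 CPM (log2 fold change -2.15 ± 0.26, adjusted p = 9.6e-05). The RNA sensor gene Ddx58, also called Rigi, was lower (log2 fold change -1.28 ± 0.14, adjusted p = 5.57e-06). Oas1g, an antiviral enzyme with near-identical relatives, was among the 12 lowest log2 fold changes that the naming rule took (log2 fold change -4.55 ± 0.54, adjusted p = 0.000228). In all 34 members the lowest treated library was replicate 3. Without it, 34 were called lower. Averaged over the list, db/+ libraries stood at 7.17 to 7.31 on the log2 (CPM + 0.5) scale, treated libraries at 3.33 to 5.11 and untreated db/db libraries at 4.63 to 5.83. In untreated db/db against db/+ islets, 26 of 34 were lower (median -1.80), and none was called between treated and untreated db/db islets.

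Genes of antigen presentation on MHC class I, many of which interferon induces, were lower in 11 of 12 tested members (median -1.98). No treated library reached a control value in any of the 12, against 71.0% of all genes tested without overlap in either direction. H2-K1, a class I heavy chain, read 638, 707 and 761 CPM in db/+ and 162, 165 and 126 CPM in treated libraries (log2 fold change -2.22 ± 0.14, adjusted p = 1.11e-07). The peptide-loading chaperone Tapbp (log2 fold change -1.24 ± 0.12, adjusted p = 1.47e-06) and the proteasome activator Psme2 (log2 fold change -1.32 ± 0.13, adjusted p = 2.4e-06) were lower. The heavy chain H2-D1 was the member not called (log2 fold change -0.22). Replicate 3 was again the lowest treated library in all 12. Class I genes are a family of near-identical members, so reads may be split between them.

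**Figure D4:**
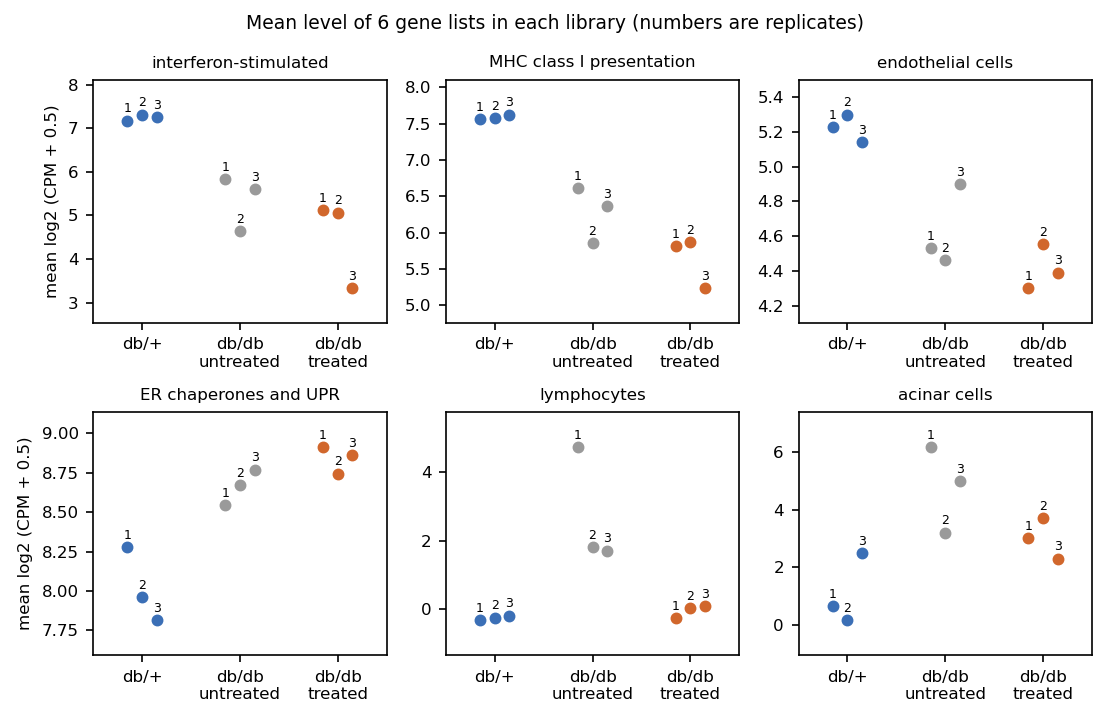
Mean log2 (CPM + 0.5) of the tested members of 6 gene lists in each of the 9 libraries (vertical axes, which do not start at 0), with replicate numbers beside the points. Interferon-stimulated genes lay between 7.17 and 7.31 in db/+ and between 3.33 and 5.11 in treated db/db libraries, with treated replicate 3 lowest, and lymphocyte genes were near 0 in both of these groups.

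Promoters of interferon-stimulated genes are shown for the interferon-stimulated response element. A pair of GAAA copies with any 2 bases between them was searched in the same windows on both strands, and overlapping matches were counted once per promoter. It was found in 14 of the 23 tested members with a promoter in the table (60.9%), in 471 of 12365 tested genes with a promoter (3.81%) and in 3.44% of all promoters. All 14 members with it were called lower, and so were 8 of the 9 without it and all 11 with no promoter in the table. Matches are in capitals, and the printed stretch is 5' to 3' on the strand of the gene.
Ifit1 (chr19:34640745-34640834, plus strand): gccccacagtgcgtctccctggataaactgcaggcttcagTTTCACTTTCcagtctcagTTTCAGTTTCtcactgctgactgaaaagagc
Isg15 (chr4:156200847-156200936, minus strand): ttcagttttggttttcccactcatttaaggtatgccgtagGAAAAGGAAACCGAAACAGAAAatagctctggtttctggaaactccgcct
Bst2 (chr8:71537553-71537642, minus strand): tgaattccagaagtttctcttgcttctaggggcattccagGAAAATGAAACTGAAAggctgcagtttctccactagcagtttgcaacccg
Ifit1, which binds foreign RNA ends, has 2 separate copies on the opposite strand. Isg15, a ubiquitin-like modifier, has a run of 3 overlapping copies on the strand of the gene, and Bst2, which tethers budding virions, has 2 overlapping ones. These 3 genes were chosen for their promoters after their values were seen. Their log2 fold changes were -3.57 for Ifit1, -2.73 for Isg15 and -2.83 for Bst2.

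The largest single-gene differences, taken among genes with non-overlapping groups, at least 10 CPM in the higher group and more than 3 counts over the lower group, were led by Cck, Aldh1a3 and Gast on the higher side, with Serpina7 among the next. Vip, a neuropeptide, read 0, 0.102 and 0.894 CPM in db/+ and 11.8, 30.2 and 38.1 CPM in treated libraries (log2 fold change 6.28 ± 1.63, adjusted p = 0.0137), and without db/+ replicate 3 its log2 fold change was 8.78, while limma voom did not call it. Bcat1, a cytosolic aminotransferase of branched-chain amino acids, read 0.693, 0.306 and 0.199 CPM against 34, 30.5 and 29.2 CPM (log2 fold change 6.25 ± 0.26, adjusted p = 5.75e-09), or 6.92 without db/+ replicate 1. Cyp26b1, which degrades retinoic acid, read 3.86, 2.24 and 2.18 CPM against 127, 119 and 97.7 CPM (log2 fold change 5.37 ± 0.47, adjusted p = 3.7e-05). The sugar transporter Slc5a10 (log2 fold change 4.93 ± 0.52, adjusted p = 5.94e-05) and the water channel Aqp4 (log2 fold change 4.93 ± 0.26, adjusted p = 1.43e-07) completed this set with Tmem45b (log2 fold change 5.93 ± 0.46, adjusted p = 1.19e-06) and C1ql3 (log2 fold change 5.73 ± 0.36, adjusted p = 1.89e-07). In db/+ libraries each of the genes from Vip to C1ql3 in this paragraph stayed below 4 CPM. Csn3, the milk protein kappa-casein, had 3 counts over the db/+ libraries and 1931 over the treated ones, a ratio of 429 with an interval from 147 to 2083. Tm4sf20, with 0 counts in db/+ and 436 in treated libraries, was at least 96.9-fold higher, with the floor set at 3 counts over the group.

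On the lower side, Kcnj12, Cox6a2, Trpm5, Fam151a, Mafa, Oas1g and Npas4 have been described. Ppp1r1a, an inhibitor of protein phosphatase 1 that is abundant in mature beta cells, read 457, 371 and 363 CPM in db/+ and 27.2, 22.4 and 22.4 CPM in treated libraries, with little spread in either group (log2 fold change -4.05 ± 0.14, adjusted p = 3.24e-09). Nnat, an imprinted ER protein of beta cells, read 61.7, 66.2 and 71.99 CPM against 2.54, 4.77 and 3.23 CPM (log2 fold change -4.24 ± 0.18, adjusted p = 8.62e-09). Kcnq1ot1, the imprinted antisense RNA of the Kcnq1 locus, read 147, 231 and 211 CPM against 12.9, 10.3 and 6.64 CPM (log2 fold change -4.31 ± 0.28, adjusted p = 2.29e-06), and because it overlaps Kcnq1 and the sources used here do not give the strand setting of the counting, its reads cannot be assigned for certain. The crystallin Crybb3 (log2 fold change -4.23 ± 0.55, adjusted p = 0.000461) and T2 (log2 fold change -5.44 ± 0.31, adjusted p = 4.92e-08) were also lower.

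A last question was whether treated islets stood apart from both other groups. Between treated and untreated db/db islets edgeR called 1 gene higher (0.00597%) and 29 lower (0.173%), while DESeq2 called 135 and 492 and voom 0 and 10, so this count depends on the method. Lower calls numbered 151, 370 and 199 without untreated db/db replicate 1, 2 or 3, 13 and 12 without db/+ replicate 1 or 2, and 6 without treated replicate 1 or 3. Higher calls numbered 66 without untreated db/db replicate 2, 3 without its replicate 3, 2 without treated replicate 2, and 0 without treated replicate 3 or any 1 of the db/+ libraries. The naming rule found 5 genes called in the same direction against both groups. These comparisons share the treated libraries, so the values are given side by side. Ltbp2, a matrix protein that binds latent TGF-beta complexes, read 5.25, 6.12 and 7.65 CPM in db/+, 3.24, 3.07 and 2.52 CPM in treated and 16.7, 8.95 and 12.7 CPM in untreated db/db libraries. It was lower in treated islets than in db/+ islets (log2 fold change -1.10 ± 0.25, adjusted p = 0.00188) and than in untreated db/db islets (log2 fold change -2.11 ± 0.24, adjusted p = 0.00325), and the second call held in all 18 alternatives. Actb, the cytoskeletal actin that is often used as a reference gene, read 1679, 1575 and 1504 CPM, 624, 648 and 548 CPM and 1208, 888 and 1007 CPM in the same order of groups. Its treated level was lower than in db/+ (log2 fold change -1.39 ± 0.14, adjusted p = 2.02e-06), and its difference from untreated db/db islets (-0.77 ± 0.13, adjusted p = 0.046) was called in 10 of 18 alternatives. It was lost without db/+ replicate 1 or 2 or any 1 of the treated libraries.

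Id1, an inhibitor of differentiation factors and a target of BMP signalling, read 12.2, 14.5 and 13.6 CPM in db/+, 2.96, 3.47 and 4.19 CPM in treated and 7.24, 8.002 and 6.76 CPM in untreated db/db libraries. Its difference from untreated db/db islets (-1.05 ± 0.18, adjusted p = 0.0394) was called in 9 of 18 alternatives and lost without any 1 of the db/+ or treated libraries. Ctla2a, a cysteine protease inhibitor, read 33.6, 35.5 and 22.04 CPM, 9.804, 10.3 and 7.93 CPM and 23.2, 19.3 and 20.5 CPM in that order, and its call (-1.17 ± 0.17, adjusted p = 0.0201) was found in 12 of 18 and lost without db/+ replicate 1 or treated replicate 1 or 3. Rps6ka2, a kinase downstream of ERK, was the 1 gene higher than in both groups, at 50.6, 49.03 and 52.4 CPM, 108, 106 and 117 CPM and 76.02, 84.2 and 77.1 CPM, again in that order. Its call against untreated db/db islets (0.48 ± 0.08, adjusted p = 0.0473) was found in only 3 of 18 alternatives, and in the fits that left out 1 library it was found only without untreated db/db replicate 2. By the same kind of rule, 0 genes were called between the 2 db/db groups with a 95% interval against db/+ within 1.5-fold and with a mean of at least 10 CPM in the highest group. This rule could find few genes, because only 30 were called between the db/db groups. Of the lymphocyte genes, near the floor in db/+ and treated libraries, 0 of 15 had such an interval. The result therefore does not show that no gene was near its db/+ level under treatment.

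**Figure D5:**
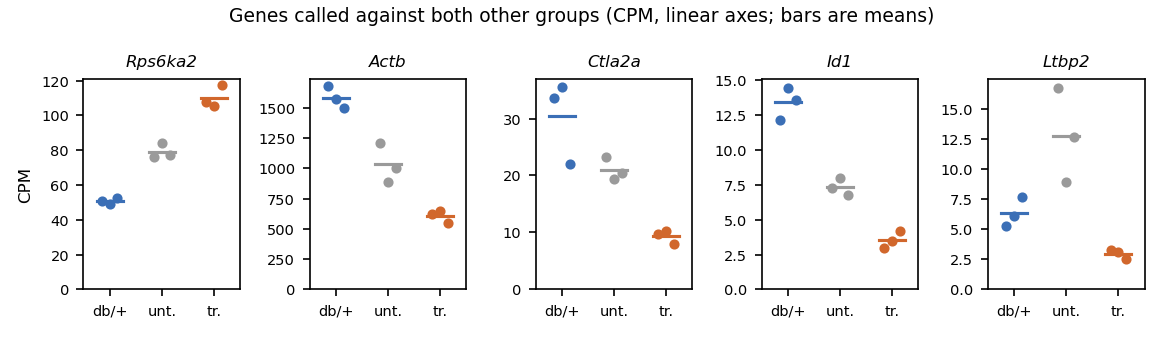
CPM of the 5 genes called in the same direction in treated db/db islets against both other groups (linear vertical axes starting at 0). Points are libraries in the order of replicates 1 to 3 and bars are group means, for db/+ (blue), untreated db/db (grey, unt.) and treated db/db (orange, tr.). Only Ltbp2 has its treated libraries below both groups while the untreated libraries lie above db/+.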

How the data were processed

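RNA of pancreatic islets was extracted with the RNeasy kit and made into libraries with a directional MGIEasy kit, per the labels' protocols. Reads were trimmed with cutadapt 1.9.1, aligned with HISAT2 2.2.1 to GRCm39 and counted with featureCounts 2.0.0, per the submitters' processing notes. Which strand setting was used for counting is not given in the sources used here, so overlapping and antisense genes, and families of near-identical genes, are uncertain. The authors deposited raw counts per transcript (139023 rows), with no normalization. Each of the 46316 symbols was represented by its transcript of largest summed count across the 9 libraries. Genes were filtered with edgeR's filterByExpr, which left 16761.

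Counts were normalised by TMM and fitted with edgeR 4.0.16 (quasi-likelihood F-test, robust, R 4.3.3) with 3 group means over all 9 libraries, and p-values were adjusted by Benjamini-Hochberg over all genes tested. Standard errors and 95% intervals come from that fit. Depth was 10292668 to 15281813 counts per library, and the median standard error of a log2 fold change was 0.16. The code was tested on simulated counts. The alternatives were DESeq2 1.42.0, limma 3.58.1 voom, 2 other scalings, 2 other filters, summed transcripts, edgeR's glmTreat against a fold of 1.5, the 6 libraries alone, a replicate block, and leaving out each library in turn. Python 3.11.15, pandas 2.3.3, scipy 1.17.1 and matplotlib 3.10.9 served for tables, counting intervals and plots.

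Most genes were named by a rule: a set of key genes, up to 3 called members in each direction with the smallest p per list, the 12 highest and 12 lowest log2 fold changes among called, non-overlapping genes, the 5 most abundant with at most 3 counts over the lower group, genes called against both other groups, and genes close to db/+ but called between the db/db groups. Predicted genes were not named. Genes outside the rule, among them members named because they were not called, were chosen after their values were seen. The members, key genes and lists were chosen with earlier results of these data known. Results on some genes are not reported here.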

Additional observations from a re-analysis of the deposited data

How the results depend on the processing

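Over the 19 alternatives tried, none of the 205 called among 211 named genes reversed between treated and db/+ islets. Many of these genes were named for a small p or a large difference in the same libraries, so the lack of reversals is a weak check. The 5493 higher and 5444 lower calls became 2971 and 3020 against a fold of 1.5, where a smaller difference is not called by construction, and 42 of the 205 called named genes were lost, among them Pdx1, Nkx6-1, Neurod1, Hspa5, Nampt, Vegfa, Yap1 and Dnajb11. Leaving out 1 library at a time gave 4737 to 5676 higher and 5037 to 5685 lower calls and lost 0 to 12 named genes. Same-numbered treated and db/+ libraries did not deviate together (r from -0.16 to -0.03 over 3 pairs). The labels do not say that equal numbers pair samples, and 3 correlations are too few to settle it. A fit with the replicate number as a block gave 5223 higher and 5216 lower calls. Upper-quartile factors shifted the median of all genes by 0.04. Between treated and untreated db/db islets, the 1 higher and 29 lower calls became 12 and 216 with no filter, 1 and 115 with the block, 0 and 13 with the stricter filter, 0 and 9 with transcripts summed and 0 and 17 against a fold of 1.5. Genes with few counts and the 3 libraries of a group limit the precision.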
